A study of Mus musculus with 72 samples.

Results

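Genes that mark mast cells, basophils and eosinophils were followed across 72 bone marrow samples of mouse acute promyelocytic leukaemia, in which the gene of retinoic acid receptor alpha (RARA) is fused to that of PML or PLZF. The 9 genes, Cpa3, Mcpt8, Prg2, Epx, Hdc, Ms4a2, Fcer1a, Il5ra and Il17rb, were chosen by name as markers of these lineages, and all 9 were found among the 19938 genes measured. Each was read by 1 probe set of an Affymetrix Mouse Gene 1.0 ST array. Values are log2 signals, so a difference of 1 is a doubling, and levels are compared between samples for 1 gene, not between genes.

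The transgenic model gave 36 arrays on a wild type background, from PML/RARA or PLZF/RARA leukaemias. At 6 h and again at 12 h, transgenic PML/RARA had 4 untreated and 8 retinoic acid arrays, and transgenic PLZF/RARA had 2 untreated and 4. The viral transduction model gave 36 arrays of PML/RARA leukaemia on a Pml wild type or a pml-/- (here Pml null) background, each with 4 untreated and 8 retinoic acid arrays at 6 h and 2 untreated and 4 retinoic acid arrays at 12 h. All leukaemias therefore carried a RARA fusion, and no normal marrow was analysed here. The labels gave no dose, age, strain or transgene promoter, and did not say which arrays came from separate animals or from separate leukaemias, so p-values measure the spread between these arrays. The models shared no batch, so model and batch cannot be told apart, and no test was made between models. A Pml background cannot be told apart from the particular leukaemias raised on it.

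Mast cells, basophils and eosinophils are granule-bearing cells that arise from myeloid progenitors in the marrow and store preformed mediators in their granules. Cpa3 encodes carboxypeptidase A3, a granule protease of mast cells and basophils that early progenitors also express, and Mcpt8 a granule serine protease of mouse basophils. Prg2, major basic protein, and Epx, eosinophil peroxidase, fill the eosinophil granule, and Hdc encodes histidine decarboxylase, the enzyme that makes histamine. Fcer1a and Ms4a2 encode the IgE-binding alpha chain and the signal-amplifying beta chain of the high-affinity IgE receptor, Il5ra the chain of the interleukin 5 receptor that binds the cytokine, and Il17rb a receptor chain for interleukin 25. GATA factors and C/EBP factors are the best known regulators of these programmes.

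The stretch from 250 bases before to 50 after a gene's start, as the RefSeq promoter table takes it (build GRCm38.p6), was held for 8 of the 9 genes, all but Prg2. That start can be of an inner transcript: it lay 28 bases inside the outer end of the annotated gene for Cpa3, 71 for Ms4a2, 302 for Mcpt8 and 5347 for Hdc, so the Hdc window is not at the gene's outer start and is not printed. Each was searched on both strands for the GATA motif AGATAA, in which the first letter could also be T and the last letter could also be G, for the C/EBP motif TTGCNNAA and for the retinoic acid receptor core site AGGTCA. Such a GATA motif lay in 5 of the 8 promoters, against 29.8% of all 32851 promoters of that length. The 5 include Hdc, with its motif at -221 in the window that is not at the gene's outer start. The C/EBP motif lay in 1 of the 8, that of Fcer1a, against 10.8% of all, and the core site in 0 of the 8 against 16.3%. Pairs of core sites spaced by 2 or 5 bases were in 0 of the 8 and in 0.0183% of all promoters. Such a match is only a description of the letters in this window. The promoters of 3 genes on which the comparisons turn are given 5′ to 3′ along the gene, with the GATA motifs in capitals. Ms4a2 held 3 of them, starting at -224, -37 and -11 from the table's start, and Cpa3 held 1 at -46, while Il17rb held none.
Ms4a2, chr19:11623670-11623969, minus strand: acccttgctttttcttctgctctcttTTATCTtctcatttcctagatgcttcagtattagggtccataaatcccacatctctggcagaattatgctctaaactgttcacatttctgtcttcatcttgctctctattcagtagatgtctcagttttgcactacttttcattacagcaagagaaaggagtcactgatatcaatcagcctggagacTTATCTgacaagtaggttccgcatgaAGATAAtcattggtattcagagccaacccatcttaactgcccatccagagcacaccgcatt
Cpa3, chr3:20242132-20242431, minus strand: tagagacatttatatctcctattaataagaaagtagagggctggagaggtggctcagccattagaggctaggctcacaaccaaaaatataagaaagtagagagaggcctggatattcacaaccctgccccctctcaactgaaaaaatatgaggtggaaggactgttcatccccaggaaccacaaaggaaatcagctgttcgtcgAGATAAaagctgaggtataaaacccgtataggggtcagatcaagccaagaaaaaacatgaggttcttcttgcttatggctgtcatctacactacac
Il17rb, chr14:30008847-30009146, minus strand: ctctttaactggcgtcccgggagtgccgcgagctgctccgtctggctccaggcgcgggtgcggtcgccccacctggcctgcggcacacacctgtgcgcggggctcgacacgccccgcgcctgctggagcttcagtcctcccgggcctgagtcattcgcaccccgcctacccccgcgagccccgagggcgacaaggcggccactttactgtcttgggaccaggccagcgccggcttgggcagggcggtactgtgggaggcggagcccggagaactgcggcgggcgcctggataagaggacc

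The label of a mast cell, basophil and eosinophil group was first set against the signal of genes that marrow does not use. The 95th percentile of 1027 olfactory receptor genes was taken on each array as a gauge of signal without target, and ranged from 5.76 to 6.38. Cpa3, Mcpt8, Prg2, Epx and Hdc lay above it on 72 of 72 arrays. Il17rb was above it on 58 arrays and Ms4a2 on 30, whereas Fcer1a passed on 2 and Il5ra on 0. Among the 9 genes, the IgE-binding chain and the interleukin 5-binding chain were thus near the level of genes with no transcript. Il5ra does not stand for the other eosinophil genes in this. Of 7 measured eosinophil markers, which hold Il5ra and other surface genes, only 1 had a mean below the gauge in each transgenic and Pml null group. That 1 was Il5ra, and in the Pml wild type groups the number was 1 to 3. The 8 measured markers of tissue mast cells, such as Cma1, Mcpt4 and Tpsb2, averaged 4.51 to 4.83 on every array, and at least 7 of the 8 group means were below the gauge in each of the 16 groups. The granule and enzyme genes of these lineages were thus measured above the gauge, and those particular to tissue mast cells were not. In bulk marrow, fewer cells of a type and less RNA per cell cannot be told apart.

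**Figure D1:**
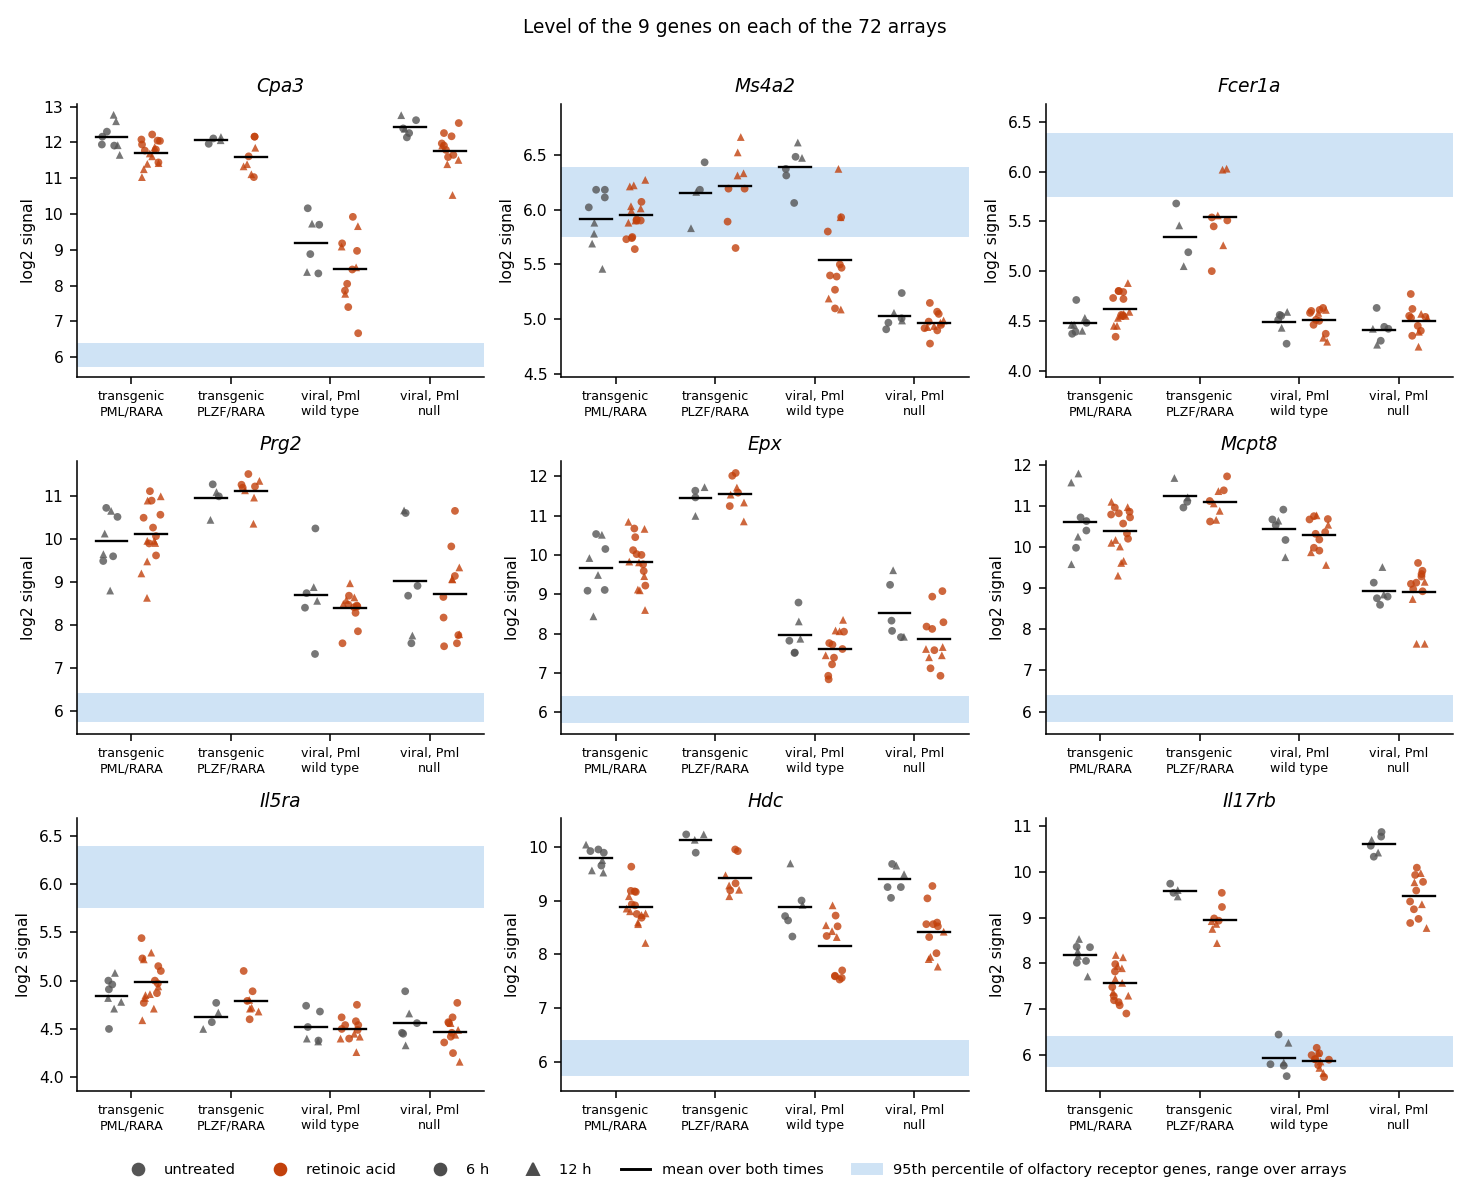
Log2 signal of each of the 9 genes (one panel per gene, vertical axis) on all 72 arrays, by leukaemia type (horizontal axis) and treatment; circles are 6 h, triangles 12 h, black lines the mean over both times, and the blue band the range over arrays, 5.76 to 6.38, of the olfactory receptor gauge. Il17rb and Cpa3 separate the viral backgrounds, Epx and Il17rb the transgenic fusions, and Fcer1a and Il5ra stay low.

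Untreated leukaemias of the viral model differed by Pml background in 4 of the 9 genes. In the Pml null leukaemias, Il17rb and Cpa3 were higher and Ms4a2 and Mcpt8 lower than in the Pml wild type leukaemias. Each comparison used limma across all 19938 genes, with an effect per group and a batch term, and a gene was called at a Benjamini-Hochberg adjusted p below 0.05. By this rule 4 of the 9 genes were called, against 20.8% of all genes, and the median difference was 0.38 over the 9 genes and 0.01 over all genes.

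Il17rb read 10.33, 10.57, 10.77 and 10.87 on the 4 untreated Pml null arrays of 6 h, and 10.42 and 10.70 on those of 12 h. On the untreated Pml wild type arrays it read 5.53, 5.76, 5.79 and 6.44 at 6 h and 5.83 and 6.26 at 12 h. The ranges were far apart, and the wild type values lay around the gauge, which 2 of the 6 passed. The difference was 4.63 ± 0.20 (SE; n = 6 and 6), (limma adjusted p 1.78e-18), and it was 4.76 within batch 3 alone. With each Pml wild type array set to the higher of its own value and its gauge, Il17rb was at least 22.7-fold higher in Pml null. Cpa3 read 12.14, 12.26, 12.39 and 12.62 at 6 h and 12.38 and 12.76 at 12 h in untreated Pml null marrow. In Pml wild type it read 8.34, 8.88, 9.70 and 10.16 at 6 h and 8.38 and 9.73 at 12 h. No array overlapped, and the difference was 3.30 ± 0.37 (SE; n = 6 and 6), or 9.85-fold (limma adjusted p 1.36e-08); the Pml wild type arrays were also the more scattered, with an SD of 0.77 against 0.23.

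Ms4a2 ran the other way. It read 6.06 to 6.61 (median 6.42, n = 6) in untreated Pml wild type marrow and 4.91 to 5.24 (median 5.0, n = 6) in Pml null marrow, where 0 of 6 arrays passed the gauge. The difference was -1.39 ± 0.15 (limma adjusted p 1.21e-08), and against the gauge Ms4a2 was at least 1.3-fold higher in Pml wild type. Mcpt8 spanned 9.76 to 10.92 (median 10.60, n = 6) in Pml wild type and 8.60 to 9.52 (median 8.83, n = 6) in Pml null, with no overlap. Its difference was also -1.39, with an SE of 0.24 (limma adjusted p 3.77e-05), and from the 12 h arrays alone it was -1.02 with an adjusted p of 0.117. The granule protease genes Cpa3 and Mcpt8 were thus placed in opposite order in the same marrows.

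The eosinophil genes did not separate the backgrounds. Prg2 spanned 7.57 to 10.67 in Pml null and 7.32 to 10.25 in Pml wild type, and Epx 7.91 to 9.61 and 7.51 to 8.79. Their differences were 0.38 (95% interval -0.54 to 1.29) and 0.58 (-0.11 to 1.27), with limma adjusted p of 0.717 and 0.293. Hdc differed by 0.45 (0.02 to 0.89; adjusted p 0.146), and Fcer1a and Il5ra by -0.10 and 0.06. Arrays of 1 group were far apart for Prg2, as in the 12 h untreated Pml null pair of 7.75 and 10.67.

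Marker lists of marrow cell types were read in the same contrast. Of 12 lists, 5 did not overlap between the untreated backgrounds in their mean per array, 1 higher and 4 lower in Pml null. The basophil list, among the lower ones, holds members of the 9 genes. How often such means fail to overlap over all genes was not taken, so the count of lists is only a description. Among single genes 20.8% were called in this contrast. The mean of 11 mature neutrophil markers was 9.11 to 10.02 in Pml null against 11.26 to 11.99 in Pml wild type, that of 7 promyelocyte markers 10.39 to 10.91 against 12.04 to 12.19, and that of 12 monocyte and macrophage markers 7.99 to 8.57 against 8.81 to 9.32. The promyelocyte markers did not all move alike, as 3 of the 7 show, named after their values were seen. The rest of that list is not given gene by gene, so these 3 do not show how most of the 7 moved. Ms4a3 differed by -5.77, whereas Mpo and Ctsg were higher in Pml null by 0.19 and 0.32 (limma adjusted p 0.000999 and 5.85e-06). The 7 basophil markers averaged 6.00 to 6.29 against 6.32 to 6.52. They hold Mcpt8, Fcer1a and Ms4a2, so this mean contains the differences of those members. The mean of 11 stem and progenitor markers was 7.92 to 8.23 against 7.44 to 7.68, and 4 or 5 of these 11 were below the gauge in the viral groups. Megakaryocyte markers overlapped, at 6.85 to 7.95 against 7.52 to 8.48. The progenitor factor Gata2 was higher in Pml null by 1.38 ± 0.21 (limma adjusted p 3.97e-06), and the receptor Kit, which progenitors and mast cells carry, by 1.79 ± 0.30 (1.75e-05). Their part in the Cpa3, Il17rb, Ms4a2 and Mcpt8 differences was not tested. The Pml probe set itself differed by -0.04 between the backgrounds, so it does not check the null label.

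The nearest genes on the chromosome were read beside the members, as 3 protein-coding genes on each side in RefSeq order; those named here were singled out after their values were seen. Chdh, which encodes choline dehydrogenase and is the next gene to Il17rb, was higher in untreated Pml null marrow by 2.15 ± 0.10 (limma adjusted p 1.25e-17). It read 10.31 to 10.63 there and 8.18 to 8.41 in Pml wild type. The other neighbours of Il17rb were not called: Actr8, on the other side, differed by -0.10 ± 0.10 and Cacna1d, beyond Chdh, by 0.14 ± 0.09. Around Ms4a2, 5 of 6 neighbours were lower in Pml null, in a comparison where 20.8% of all genes were called and 9.92% were called lower. Ms4a3, the next gene and a granulocyte-monocyte progenitor marker, differed by -5.77, with 12.49 to 12.63 in Pml wild type and 6.40 to 7.19 in Pml null, and the neighbours Ms4a6d, Oosp2, Oosp1 and Ms4a6b differed by -3.08, -1.54, -2.46 and -1.86. No neighbour of Cpa3 was called among the 5 measured, and 1 of 5 was called beside Mcpt8, its neighbour Ctsg at 0.32 ± 0.05. Between the untreated transgenic fusions, 25.3% of all genes were called and 13.1% were called higher in PML/RARA. There 0 of 6 neighbours of Il17rb were called, although Il17rb was. By contrast, 6 of 6 neighbours of Ms4a2 and 4 of 5 of Cpa3 were called higher in PML/RARA, although neither of those 2 genes was.

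**Figure D2:**
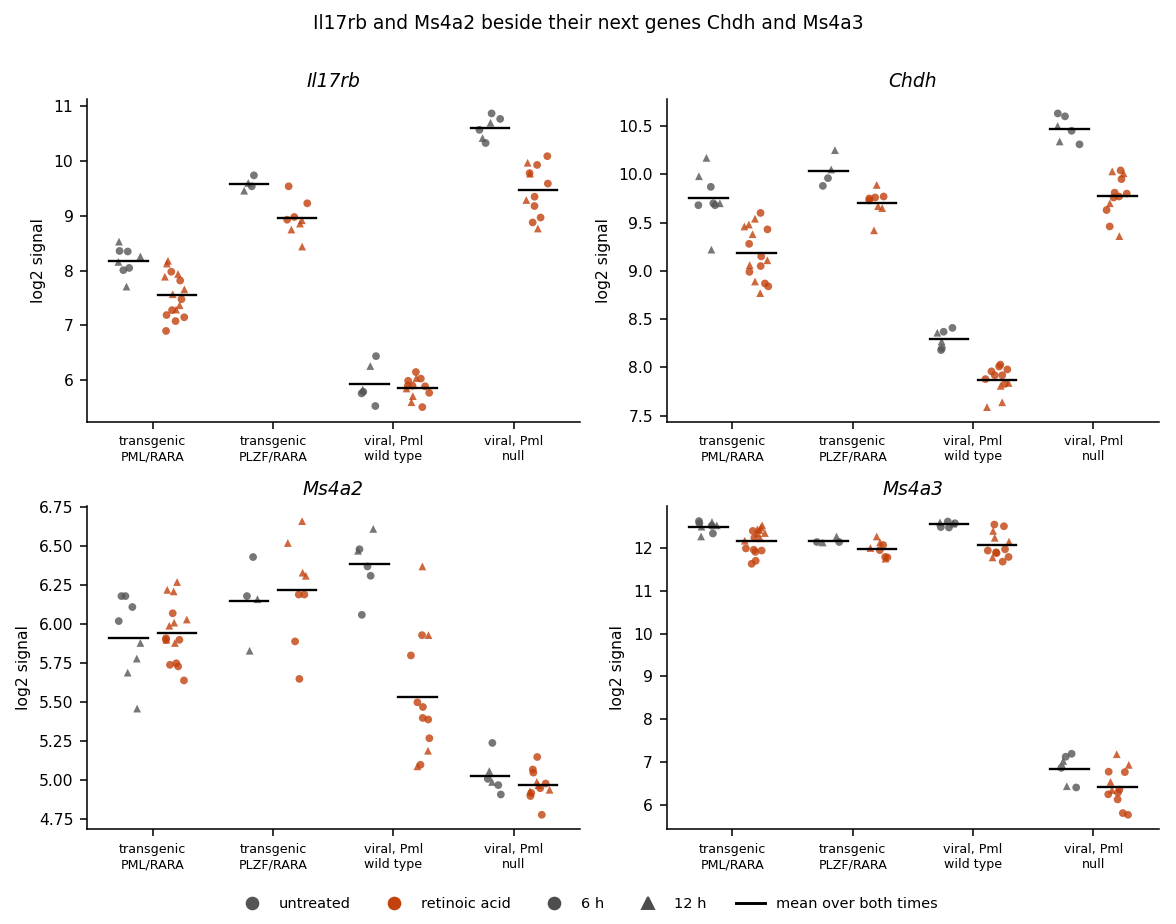
Log2 signal (vertical axis) of Il17rb and Ms4a2 with their next genes Chdh and Ms4a3, by leukaemia type (horizontal axis); grey is untreated, orange retinoic acid, circles 6 h, triangles 12 h, black lines means over both times, and the vertical scales differ between panels. The means of Chdh have the order of those of Il17rb across types. Between the untreated transgenic fusions, however, Chdh was not called and overlapped, at 9.22 to 10.17 in PML/RARA and 9.88 to 10.25 in PLZF/RARA. Ms4a3 is near 12 everywhere except in Pml null marrow, where untreated arrays span 6.40 to 7.19.

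Untreated transgenic leukaemias of the 2 fusions also differed, with Epx, Prg2, Fcer1a and Il17rb higher in PLZF/RARA. All 4 genes called were lower in PML/RARA, against 25.3% of all genes called in either direction. The median difference of the 9 genes was -0.66, and that of all genes 0.01.

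Epx read 11.46, 11.63, 10.99 and 11.72 on the untreated PLZF/RARA arrays and 8.44 to 10.53 (median 9.70, n = 8) on the untreated PML/RARA arrays, with no overlap. The difference, PML/RARA minus PLZF/RARA, was -1.80 ± 0.36 (limma adjusted p 0.000193). Prg2 ran in the same direction but overlapped, with 10.45 to 11.28 (median 11.05, n = 4) in PLZF/RARA and 8.80 to 10.73 (median 9.89, n = 8) in PML/RARA. Its difference of -1.0 ± 0.35 had a limma adjusted p of 0.0334, and the call was lost without any of 7 of the 12 single arrays, where the difference ranged from -0.83 to -1.07; without PLZF/RARA replicate 2 of 12 h the adjusted p was 0.155.

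Il17rb read 9.54 and 9.74 at 6 h and 9.46 and 9.60 at 12 h in untreated PLZF/RARA, above all 8 untreated PML/RARA arrays (7.71 to 8.53, median 8.21). The difference was -1.39 ± 0.18 (limma adjusted p 1.72e-07). Fcer1a read 5.19 and 5.68 at 6 h and 5.05 and 5.46 at 12 h in PLZF/RARA, and 4.37 to 4.71 (median 4.46, n = 8) in PML/RARA. That difference of -0.86 ± 0.13 (limma adjusted p 1.5e-06) lay wholly below the gauge of signal without target. Of the 7 basophil markers, which hold Mcpt8, Fcer1a and Ms4a2, 4 were called lower in PML/RARA and 0 higher. Over all genes 12.2% were called lower in this contrast and 13.1% higher. In untreated PML/RARA, 3 of the 7 markers at 6 h and 4 at 12 h had a mean below the gauge. In untreated PLZF/RARA it was 2 at each time. The basophil protease Prss34 differed by -1.76 ± 0.22 (adjusted p 5.24e-08) and the steroid enzyme Cyp11a1 by -4.68 ± 0.15 (2.35e-23). Il3ra, the interleukin 3 receptor chain that basophils and progenitors carry, went the other way, at 9.44 to 9.80 in PML/RARA and 9.08 to 9.42 in PLZF/RARA (0.40 ± 0.09, adjusted p 0.000716). So did the eosinophil surface gene Siglecf, by 1.44 ± 0.13 (4.77e-11).

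The other 5 genes were not called between the fusions. Mcpt8 differed by -0.66 (95% interval -1.29 to -0.02; limma adjusted p 0.132), Hdc by -0.30 (-0.61 to 0.02; 0.18) and Ms4a2 by -0.25 (-0.46 to -0.03; 0.0857). Cpa3, at 11.65 to 12.77 in PML/RARA and 11.96 to 12.15 in PLZF/RARA, differed by 0.04 (-0.36 to 0.43; 0.93). Of the 12 marker lists, 5 did not overlap between the untreated fusions in their mean per array. This count too is only a description, in a contrast where 25.3% of single genes were called. Higher in PML/RARA were the means of 9 erythroid markers (8.13 to 9.85 against 6.48 to 6.68), 9 T and NK cell markers (7.51 to 8.06 against 6.52 to 7.01), 6 megakaryocyte markers (9.10 to 9.72 against 8.63 to 8.90) and 7 promyelocyte markers (11.66 to 11.98 against 11.32 to 11.57). The basophil mean was lower, at 6.15 to 6.54 against 7.44 to 7.67, and without Cyp11a1 at 6.26 to 6.69 against 7.01 to 7.25. The mean of 7 eosinophil markers, which hold Epx, Prg2 and Il5ra, overlapped, at 7.78 to 8.86 against 8.38 to 8.89. Their part in the differences was not tested.

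Over the 4 leukaemia types the order of untreated levels was thus not shared by the 9 genes. For Il17rb the order from high to low was Pml null, PLZF/RARA, transgenic PML/RARA and Pml wild type, with means of 10.61 (SD 0.21), 9.59 (0.12), 8.18 (0.26) and 5.94 (0.34) and no overlap between neighbours. For Epx it was PLZF/RARA at 11.45 (0.33), transgenic PML/RARA at 9.65 (0.75), Pml null at 8.51 (0.73) and Pml wild type at 7.97 (0.50), where each of the last 3 overlapped its neighbour in that order. Cpa3 was at 12.43 (0.23) in Pml null, 12.16 (0.38) in transgenic PML/RARA and 12.07 (0.08) in PLZF/RARA, which overlapped, and at 9.20 (0.77) in Pml wild type. Ms4a2 was at 6.38 (0.19) in Pml wild type, 6.15 (0.25) in PLZF/RARA and 5.91 (0.26) in transgenic PML/RARA, with overlap, and at 5.03 (0.11) in Pml null. Hdc was at 10.12 (0.16) in PLZF/RARA, 9.78 (0.19) in transgenic PML/RARA, 9.39 (0.25) in Pml null and 8.88 (0.46) in Pml wild type, each overlapping the next. Mcpt8 was at 11.25 (0.31) in PLZF/RARA, 10.63 (0.75) in transgenic PML/RARA and 10.45 (0.42) in Pml wild type, which overlapped, and lowest in Pml null at 8.94 (0.33). Prg2 had the order of Epx, at 10.96 (0.36), 9.95 (0.68), 9.03 (1.35) and 8.69 (0.94), with overlap throughout. Fcer1a was at 5.35 (0.28) in PLZF/RARA and at 4.41 to 4.48 in the other types, and Il5ra spanned 4.33 to 5.08 over all untreated arrays. Orders that cross the models also cross the batches.

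Retinoic acid lowered Hdc more often than any other of the 9 genes. Hdc fell past the threshold in 6 of the 8 comparisons of retinoic acid with untreated marrow and was negative in 8 of 8, with differences from -1.56 to -0.47. Il17rb fell in 3, Ms4a2 fell in 2 and rose in 1, and Cpa3 fell in 1, while Prg2, Epx, Mcpt8, Fcer1a and Il5ra were called in 0 of 8. As a check of the treatment, the retinoic acid target Cyp26a1 rose in all 8 comparisons, by 3.36 to 5.76.

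Hdc in transgenic PML/RARA read 9.65, 9.89, 9.92 and 9.95 untreated at 6 h and 8.68 to 9.63 (median 9.04, n = 8) with retinoic acid. At 12 h it read 9.52, 9.56, 9.75 and 10.04 untreated and 8.21 to 9.08 (median 8.75, n = 8) treated. Neither pair of groups overlapped. The differences were -0.84 ± 0.15 at 6 h and -1.02 ± 0.15 at 12 h, 0.559 and 0.494 times the untreated level (limma adjusted p 0.000151 and 2.87e-06), and the 6 h difference was -0.65 within batch 1 and -1.12 within batch 2, with adjusted p of 0.0396 and 0.00023.

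In transgenic PLZF/RARA, Hdc read 10.13 and 10.23 untreated and 9.47, 9.28, 9.20 and 9.08 with retinoic acid at 12 h, and the 4 treated arrays were all lower. The difference was -0.92 ± 0.21 (limma adjusted p 0.00678); without untreated replicate 1 or replicate 2 of that time, which leaves 1 untreated array, the adjusted p was 0.0567 or 0.105 at -0.97 or -0.87. At 6 h the untreated 10.23 and 9.89 overlapped the treated 9.92, 9.32, 9.95 and 9.19, and the difference was -0.47 ± 0.21 (adjusted p 0.304).

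In Pml wild type viral leukaemia, Hdc read 8.33, 8.71, 9.0 and 8.63 untreated at 6 h and 7.53 to 8.72 (median 7.65, n = 8) treated, with overlap. The difference of -0.72 ± 0.21 (limma adjusted p 0.0243) was -0.72 in batch 3 and in batch 4 as well, with adjusted p of 0.375 and 0.199. The call was lost without untreated replicate 2 (-0.66, adjusted p 0.0965) or replicate 3 (-0.65, 0.107). At 12 h the untreated 9.69 and 8.92 and the treated 8.43, 8.32, 8.54 and 8.91 gave -0.75 ± 0.30 (adjusted p 0.151).

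In Pml null viral leukaemia, Hdc read 9.49 and 9.65 untreated at 12 h and 8.42, 7.91, 7.77 and 7.95 treated. The difference was -1.56 ± 0.30, or 0.339 times the untreated level (limma adjusted p 0.000772). At 6 h the untreated 9.05, 9.25, 9.25 and 9.68 overlapped the treated range of 8.02 to 9.27 (median 8.56, n = 8). That difference was -0.70 ± 0.21 (adjusted p 0.0278), with -0.79 in batch 3 and -0.61 in batch 4 (adjusted p 0.254 and 0.335), and 5 of the 12 single arrays took the adjusted p to between 0.0504 and 0.116 when left out.

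Il17rb fell in transgenic PML/RARA at 6 h and in Pml null at both times. In transgenic PML/RARA at 6 h it read 8.01, 8.35, 8.36 and 8.05 untreated and 6.90 to 7.98 (median 7.23, n = 8) treated, with no overlap and a difference of -0.85 ± 0.18 (limma adjusted p 0.000854). The difference was -0.82 within batch 1 and -0.90 within batch 2. At 12 h it was -0.41 ± 0.18 (adjusted p 0.0962), and the groups overlapped. In Pml null at 6 h Il17rb read 10.33, 10.87, 10.57 and 10.77 untreated and 8.88 to 10.09 (median 9.47, n = 8) treated, again with no overlap. The difference was -1.16 ± 0.20 (limma adjusted p 0.000103), at -1.28 in batch 3 and -1.05 in batch 4.

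At 12 h in Pml null the untreated 10.42 and 10.70 stood above the treated 9.77, 8.77, 9.97 and 9.29 of Il17rb. The difference was -1.10 ± 0.28 (limma adjusted p 0.0119). The call was lost without untreated replicate 1 (-1.24, adjusted p 0.0562), untreated replicate 2 (-0.97, 0.245) or treated replicate 2 (-0.88, 0.0609). In PLZF/RARA the differences were -0.47 ± 0.25 at 6 h and -0.79 ± 0.25 at 12 h, and neither passed (adjusted p 0.389 and 0.0675), although the 4 treated arrays of 12 h, at 8.44 to 8.92, lay below both untreated ones. In Pml wild type, where Il17rb was at the level of genes without target, the differences were 0.01 and -0.24. Chdh, beside it, fell in 6 of the 8 comparisons, by 0.35 to 0.72, also in Pml wild type.

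Ms4a2, the beta chain of the IgE receptor, fell in Pml wild type viral leukaemia. At 6 h it read 6.37, 6.48, 6.06 and 6.31 untreated and 5.10 to 5.93 (median 5.43, n = 8) treated, with no overlap. The difference was -0.82 ± 0.15 (limma adjusted p 0.000396), at -1.04 within batch 4 and -0.60 within batch 3, where the adjusted p was 0.397. At 12 h it read 6.61 and 6.47 untreated and 6.37, 5.93, 5.19 and 5.09 treated, a difference of -0.90 ± 0.22 (adjusted p 0.00963). Without untreated replicate 1 or replicate 2 of that time the adjusted p was 0.161 or 0.0883.

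In transgenic PML/RARA, Ms4a2 went down at 6 h and up at 12 h. At 6 h it read 6.18, 6.18, 6.02 and 6.11 untreated and 5.64 to 6.07 (median 5.83, n = 8) treated, a difference of -0.28 ± 0.10 that did not pass (limma adjusted p 0.0656) but did under 6 of 10 alternatives, with adjusted p down to 0.0015 with array weights. At 12 h it read 5.69, 5.88, 5.46 and 5.78 untreated and 5.88 to 6.27 (median 6.02, n = 8) treated, and it rose by 0.36 ± 0.10 (adjusted p 0.00739). These values lie at the gauge, which 1 of the 4 untreated and 5 of the 8 treated arrays of 12 h passed, and 4 of 4 and 3 of 8 at 6 h. The call at 12 h was lost without untreated replicate 3 (0.28, adjusted p 0.0694), and with the untreated arrays of both times pooled it was 0.20 (0.157). The untreated arrays themselves differed by time, since all 4 of 12 h lay below all 4 of 6 h. PLZF/RARA had the same signs, -0.32 ± 0.14 at 6 h and 0.46 ± 0.14 at 12 h, and neither passed (adjusted p 0.289 and 0.0604). In Pml null, below the gauge throughout, Ms4a2 differed by -0.06 and -0.07.

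Cpa3 had a negative difference in 8 of 8 comparisons, from -1.23 to -0.11, and 1 was called. In transgenic PML/RARA at 12 h it read 11.92, 11.65, 12.77 and 12.59 untreated and 11.03 to 11.87 (median 11.52, n = 8) treated. The groups overlapped through untreated replicate 2, and the difference was -0.73 ± 0.19, or 0.605 times the untreated level (limma adjusted p 0.00405). Without untreated replicate 3 it was -0.55, with an adjusted p of 0.0517. Untreated replicates 3 and 4 of that group were also the highest of its 4 untreated arrays for Mcpt8, at 11.80 and 11.58 against 9.59 and 10.26. Mcpt8 differed there by -0.68 ± 0.30 (adjusted p 0.116). That value ran from -1.09 without untreated replicate 1, where it passed (adjusted p 0.00677), to -0.35 without another array, and it passed with array weights (-1.05, 0.00419). The larger Cpa3 differences of -0.96 in Pml wild type at 6 h and -1.23 in Pml null at 12 h did not pass (adjusted p 0.104 and 0.196); the former passed with array weights (-1.02, 0.0263) and without treated replicate 6 (-1.14, 0.0293).

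The eosinophil genes and the interleukin 5 receptor chain gave no call. Prg2 differed by -0.41 to 0.27 over the 8 comparisons, Epx by -1.24 to 0.26 and Il5ra by -0.09 to 0.21. The most negative of the Epx values was in Pml null at 12 h, where the untreated 7.92 and 9.61 and the treated 7.45, 7.66, 7.40 and 7.61 did not overlap (95% interval -2.21 to -0.26; limma adjusted p 0.144). Fcer1a in PLZF/RARA at 12 h differed by 0.46 (0.11 to 0.82; adjusted p 0.15), with 2 of its 4 treated arrays, at 6.03 and 6.02, the only ones of the 72 above the gauge.

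Read against all genes, the share of the 9 genes called was 2 of 9 in transgenic PML/RARA at 6 h, where 14.3% of all genes were called, and 3 of 9 at 12 h, where 21.6% were. In PLZF/RARA it was 0 of 9 at 6 h against 2.2%, with 2 of 9 at an unadjusted limma p below 0.05, and 1 of 9 at 12 h against 4.03%. In Pml wild type it was 2 of 9 at 6 h against 9.88% and 1 of 9 at 12 h against 6.1%. In Pml null it was 2 of 9 at each time, against 11.4% at 6 h and 6.05% at 12 h. The median difference of the 9 genes ran from -0.88 in Pml null at 12 h to 0.17 in transgenic PML/RARA at 6 h, against 0.01 and 0.02 over all genes. With so few members these counts describe the 9 genes one by one rather than as a group.

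**Figure D3:**
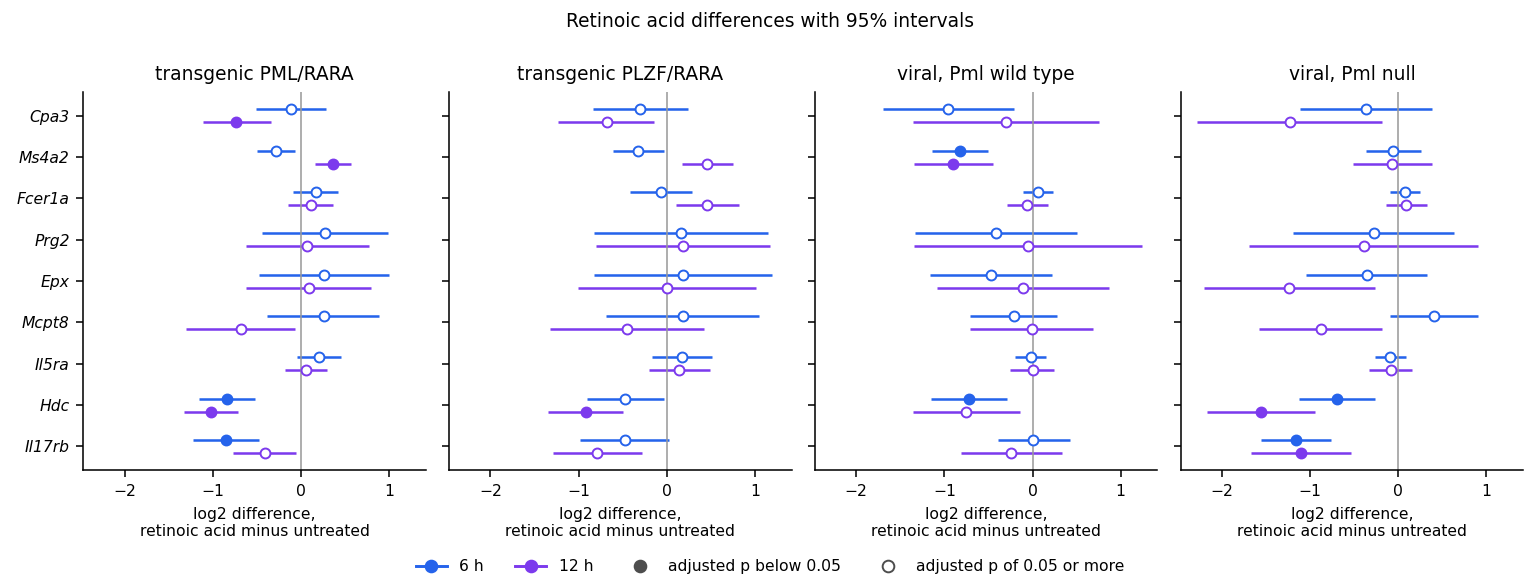
Log2 difference of retinoic acid minus untreated (horizontal axis) for each of the 9 genes (vertical axis) in the 4 leukaemia types, at 6 h (blue) and 12 h (purple); points are limma estimates, bars their 95% intervals, and filled points have an adjusted p below 0.05. Hdc lies left of 0 in all 8 comparisons, from -1.56 to -0.47, and Ms4a2 lies on both sides of 0.

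Whether retinoic acid acted differently between the leukaemias was tested as a difference of differences, taken as the mean over both times. Between the fusions it was called for 0 of the 9 genes by limma, with 0 at an unadjusted p below 0.05, against 7.42% of all genes. The 95% intervals were -0.61 to 0.14 for Hdc, -0.44 to 0.44 for Il17rb and -0.28 to 0.22 for Ms4a2. Between the viral backgrounds it was called for 2 of 9, against 1.13% of all genes. The retinoic acid difference of Il17rb was lower in Pml null by -1.02 ± 0.24 and that of Ms4a2 higher by 0.80 ± 0.19 (limma adjusted p 0.0254 for both). In each case the background without the fall was the one in which the gene read at or below the gauge: Il17rb in Pml wild type, Ms4a2 in Pml null.

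Both differences rested on few 12 h untreated arrays. For Ms4a2, leaving out any of the 4 untreated arrays of 12 h took the adjusted p to between 0.0647 and 0.108. For Il17rb, leaving out untreated replicate 2 of 12 h gave 0.137 in Pml null and 0.15 in Pml wild type. With batch 3 alone the differences were 0.62 and -1.13, with adjusted p of 0.748 and 0.163. Batch 4 held no 12 h arrays, so it gave no such value.

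Between the times, the retinoic acid difference at 12 h exceeded that at 6 h for Ms4a2 in transgenic PML/RARA, by 0.65 ± 0.15 (limma adjusted p 0.0408). It was the 1 gene of 9 called there, on values at the gauge, against 0.231% of all genes, and within batch 1 it was 0.59 with an adjusted p of 0.432. Left out one at a time, 16 of the 24 arrays of that comparison ended the call, with differences from 0.57 to 0.71. The same test called 0 of 9 in PLZF/RARA, against 0.0251% of all genes, 0 of 9 in Pml wild type, against 0%, and 0 of 9 in Pml null, against 0.0351%. At an unadjusted limma p below 0.05 those counts were 2, 0 and 2.

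Within groups, some of the 9 genes rose and fell together from array to array. Deviations left after group and batch were both taken out were correlated over the 36 arrays of each model, for 36 pairs of genes. Permutation p-values from 100000 draws were adjusted over those pairs. Prg2 and Epx had an r of 0.97 and a rho of 0.96 in the transgenic model, and an r of 0.97 without the 2 farthest arrays (permutation p 1e-05, the smallest these draws give, adjusted 9e-05). In the viral model r and rho were 0.78, and r was 0.72 without the 2 farthest arrays, 0.64 in batch 3 and 0.94 in batch 4 (permutation p 1e-05, adjusted 0.00018). In the viral model 5 arrays lay more than 1 above their group mean in Prg2 and apart from the rest. Over the other 31 arrays r was 0.40, from plain deviations from the group mean with batch not taken out. It cannot be set against the 0.78, and leaving out only high Prg2 values also narrows the range. The eosinophil granule genes thus varied closely together across arrays of 1 group in the transgenic model, while neither was called with retinoic acid.

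Cpa3 and Mcpt8 had an r of 0.71 and a rho of 0.73 in the transgenic model, and 0.66 without the 2 farthest arrays (permutation p 1e-05, adjusted 9e-05). In the viral model r was 0.66 and rho 0.70 (permutation p 2e-05, adjusted 0.00024), with 0.77 in batch 3 and 0.30 in batch 4. So these granule proteases varied together within groups although the untreated viral backgrounds set them in opposite order. Epx and Il5ra had an r of 0.70 in the transgenic model and of 0.53 in the viral model (permutation p 1e-05 and 0.00101, adjusted 9e-05 and 0.00909), with rho of 0.65 and 0.55 and, without the 2 farthest arrays, r of 0.66 and 0.55; Il5ra was below the gauge on all arrays. Within batch 1 of the transgenic model these r were 0.97, 0.71 and 0.77 for the 3 pairs, and batch 2 held 4 arrays, too few for a value. Arrays that share a leukaemia would not be independent, and the labels do not give this.

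**Figure D4:**
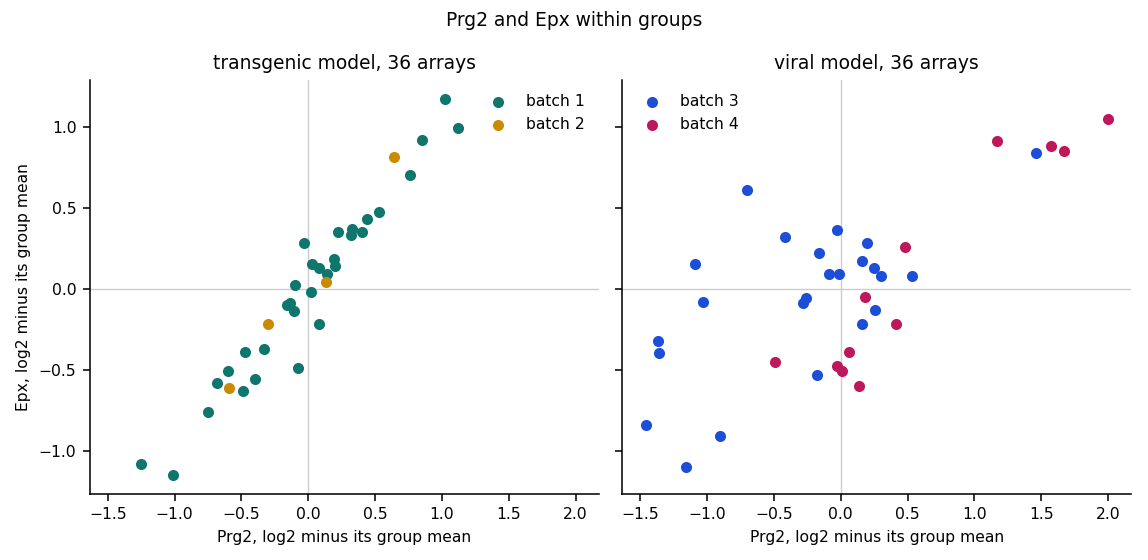
Deviation of Epx (vertical axis) against that of Prg2 (horizontal axis) from the mean of the array's own group, in log2 units, for the 36 transgenic arrays (left) and the 36 viral arrays (right); each point is 1 array and colours are batches. The points lie close to a line in the transgenic model and more loosely in the viral model, where 5 arrays stand apart at the upper right. The r of 0.97 and 0.78 given in the text are of deviations with batch also taken out, not of these points.

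The other genes most like each member were found by Pearson's r over all 72 arrays, centred per model and so including the differences between leukaemia types of a model. For Il17rb they were Chdh (0.966), Dpy19l3 (0.963) and Plcb4 (0.961), and for Cpa3 Man1a (0.932), Cers4 (0.904) and Lat2 (0.898), an adaptor of IgE receptor signalling. Members were not candidates, although Prg2 and Epx had an r of 0.804 with each other. For Prg2 they were Prg3 (0.827), its neighbour and a second major basic protein gene, Ear6 (0.809), an eosinophil ribonuclease, and Eps8 (0.72), and for Epx Prg3 (0.84), Aff3 (0.802) and Cd72 (0.792). Hdc was most like Adgrg1 (0.796), an adhesion receptor of stem cells, Trim28 (0.79) and Fkbp1a (0.786). Ms4a2 was most like Abcg3 (0.872), Zfp111 (0.847) and Clec4n (0.837), and Mcpt8 like Map3k20 (0.793), P2rx3 (0.783) and Ndufs3 (0.776). The low-signal genes paired with Trim12a (0.89), Glrp1 and Hook1 (both 0.866) for Fcer1a and with Tspo2 (0.747), Gpr155 (0.717) and Apol8 (0.701) for Il5ra.

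Adgrg1, the gene most like Hdc, fell with retinoic acid in transgenic PML/RARA (-0.82 at 6 h and -1.56 at 12 h), in PLZF/RARA at 12 h (-1.03) and in Pml null (-0.87 at 6 h and -1.71 at 12 h). Kit fell in 6 of the 8 comparisons, by 1.24 to 1.61, but in PLZF/RARA it differed by -0.19 and -0.31 (limma adjusted p 0.745 and 0.546). Gata2 fell in transgenic PML/RARA by 0.70 and 1.32, in PLZF/RARA at 12 h by 0.84 and in Pml null at 12 h by 0.99. The mean of the 11 stem and progenitor markers, which hold Kit, Gata2 and Adgrg1, was 8.18 to 8.36 untreated and 7.68 to 7.85 treated in transgenic PML/RARA at 12 h, and 8.05 to 8.07 and 7.37 to 7.75 in Pml null at 12 h. Treated arrays overlapped untreated ones in PLZF/RARA at 6 h (8.2 to 8.35 against 8.3 to 8.4) and in Pml null at 6 h (7.73 to 8.07 against 7.92 to 8.23). In the other comparisons they lay wholly below. Adgrg1 was picked for its likeness to Hdc in these same arrays, so its fall is no separate support. In PLZF/RARA at 12 h, where Hdc fell, Kit was not called and Gata2 fell by 0.84. There the mean of the 11 markers was 7.91 to 8.16 treated against 8.32 to 8.4 untreated. The part of stem and progenitor cells in the fall of Hdc was not tested.

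Other genes of these lineages, from lists that hold the 9 genes as well, moved in both directions with retinoic acid. Of 23 measured mast cell and basophil effector genes, 3 rose and 3 fell in transgenic PML/RARA at 12 h (median -0.02, all genes -0.01). In that comparison 21.6% of all genes were called. The 3 that rose were Alox5 by 1.14 and Ltc4s by 1.33, of leukotriene synthesis, and Slc18a2 by 0.39, of amine storage. Those that fell were Hdc, Cpa3 and Ctsg, the last by 0.23. In Pml null at 12 h 4 of the 23 rose, among them Prss34 by 1.72 ± 0.38 (limma adjusted p 0.00342) and Alox5 by 1.47, and 2 fell, Hdc and Ctsg, where 6.05% of all genes were called. Of 15 genes of the IgE receptor complex and its signalling, 4 rose and 3 fell in transgenic PML/RARA at 12 h; the kinase Syk rose by 0.62 and the phospholipase Plcg1 fell by 0.50. Fcer1g, the chain shared with other Fc receptors, fell by 0.25 at 6 h there and differed by 0.11 at 12 h.

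Of 7 eosinophil granule genes, 1 rose and 0 fell in transgenic PML/RARA at 12 h, the ribonuclease Rnase2a by 0.85, and of 8 eosinophil surface genes 2 rose, Cd24a by 1.17 and Siglecf by 0.72. Of 17 cytokine receptors of these lineages, 5 rose and 2 fell there; Il17ra, the partner chain of Il17rb, fell by 1.08 and Il18rap by 1.51. Of 15 mast cell and basophil surface genes, 4 rose and 1 fell, the last being Kit by 1.29. Of 27 transcription factors, 11 rose and 5 fell, with Cebpe up by 1.39 and Cebpa by 1.09. The lists were drawn up with earlier results of these data known, and their counts are descriptions beside the 21.6% of all genes called in that comparison.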

How the data were processed

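RNA of 72 bone marrow samples was hybridised to Affymetrix arrays, and the authors deposited 1 table of log2 expression values, made with RMA and affy per the submitters' processing notes, with no parameters named there. RMA quantile-normalizes arrays together, so a global change in RNA would not show. Precision is limited by the number of arrays in a group.

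Of 35556 probe sets, 21789 were listed with 1 gene symbol, 1621 with several and 12146 with none. The probe set with the highest mean stood for each of 19938 genes, of which 999 had several. Each model (36 arrays, 27 residual degrees of freedom) was fitted with limma 3.58.1 in R 4.3.3, with an effect per group and an additive batch term, eBayes, two-sided tests and Benjamini-Hochberg adjustment over all genes. Untreated differences and differences in retinoic acid effect are means over both times. The procedure was tested on simulated data. No 2 arrays held identical values (highest r 0.996). The members and lists were chosen with earlier results of these data known. Besides the members and a small panel (such as Gata2, Kit, Prss34 and Cyp26a1), the text names the 3 genes most like each member and up to 4 called genes per list; other genes are said to be chosen after their values were seen. Alternatives were normalization, filters, batch, probe sets, variance prior, array weights, the arrays fitted and leaving out each array.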

Additional observations from a re-analysis of the deposited data

Results flagged for a closer look

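A difference between groups was found for 3 results. The retinoic acid effect on Il17rb was -1.02 lower on the log2 scale in Pml null than in Pml wild type viral leukaemia, and that on Ms4a2 was 0.80 higher (limma interaction, adjusted p 0.0254 for both). In each case the background with no fall read at or below the gauge of signal without target, and the part of this in the difference was not tested. Both calls were lost without single untreated arrays of 12 h. In transgenic PML/RARA the effect on Ms4a2 was 0.65 higher at 12 h than at 6 h (adjusted p 0.0408), on values at the gauge; 16 of the 24 arrays ended that call when left out.

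Single arrays stood apart from their group in 4 of the 108 gene and group sets tested, where chance gives about 1 in 20. All 4 concern genes below the gauge of signal without target. Fcer1a read 5.0 in transgenic PLZF/RARA with retinoic acid at 6 h, replicate 2, against 5.45 to 5.54 in the others of the group. It read 4.88 in transgenic PML/RARA with retinoic acid at 12 h, replicate 7, against 4.45 to 4.59, and 4.27 in untreated Pml wild type at 6 h, replicate 3, against 4.51 to 4.56. Il5ra read 4.50 in untreated transgenic PML/RARA at 6 h, replicate 4, against 4.91 to 5.0.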

How the results depend on the processing

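Of the 24 member results called, 13 kept their direction and call under every alternative run, 13 under every single array left out and 11 under both, and 0 changed sign. Of the 120 not called, 56 changed sign under at least 1 setting, and 0 passed with the other sign. No paired analysis was made because the labels name no pairs and give every array the same replicate number. The titles also carry serial numbers, which do not say which arrays belong together. Whether arrays with adjoining numbers share a leukaemia was not tested. The numbers of the 9 genes called that moved by more than 1.5 times, or between 0 and 1, are given here, and the cause was not tested unless stated. Smaller moves were from 2 to 3 in transgenic PML/RARA at 6 h, where Ms4a2 was gained under 6 alternatives, from 2 to 3 with array weights in Pml wild type at 6 h, and from 4 to between 3 and 5 in both untreated comparisons. In transgenic PML/RARA at 12 h it was 3, 5 with array weights and 1 to 5 with 1 array left out. In PLZF/RARA at 12 h it was 1, 3 with quantile normalization, 2 with the filter, with pooled untreated arrays or with that type alone, and 0 to 2 with 1 array left out. In Pml wild type at 6 h it was 2, 1 with the filter, with that type alone or in batch 4, 0 in batch 3, and 1 to 3 with 1 array left out. At 12 h it was 1, 2 with array weights, 0 with the filter, which removes Ms4a2 from the test, 0 with that type alone or batch 3 alone, and 0 to 1 with 1 array left out. In Pml null at 6 h it was 2, 1 in batch 3 and in batch 4, and 1 to 2 with 1 array left out; at 12 h it was 2, 4 with array weights and 1 to 3. The difference between viral backgrounds in the retinoic acid effect gave 2, 1 with the filter, 0 with batch 3 alone, 0 at 6 h only or 12 h only, which were added after seeing the data, and 0 to 2 with 1 array left out. The difference of 12 h against 6 h gave 1 in transgenic PML/RARA, 3 with array weights, 0 in batch 1 and 0 to 1 with 1 array left out, and in PLZF/RARA 0, with 0 to 1. The filter on mean signal left 13244 genes with 7 members in the transgenic and 13132 with 6 in the viral model. Signal near the gauge limits what can be read from Fcer1a, Il5ra, Ms4a2 outside untreated Pml wild type and Il17rb in Pml wild type.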
